A study of Mus musculus with 6 samples.

Results

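The 36 genes described here are 28 genes of mitosis and 8 genes of DNA replication, taken by gene name from the 30914 genes of the deposited FPKM table. They were read in all 6 libraries, each from the heart of 1 wild-type male C57BL/6J mouse. The mice are given as 8 weeks old, which in the paper is their age when procured, before the 4 weeks of infusion. In the Ang II group (n = 3), pathological cardiac hypertrophy was induced with angiotensin II (Ang II) from osmotic pumps at 1 μg/kg/min for 4 weeks. The Ang II + Tec group (n = 3) had the same infusion and, in its last 2 weeks, Tec (tectochrysin, a plant flavonoid) at 5 mg/kg. All 6 mice therefore carried Ang II, hearts without it were not analysed here, and the comparison asks how the 2 weeks of Tec altered the transcriptome of an Ang II heart. RNA came from whole tissue, in which fewer cells of a type and less RNA per cell cannot be told apart. Values are FPKM, fragment numbers scaled by the length of the transcript and by the mapped total of the library, which allow levels to be compared between genes of different length.

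Before a cell divides, it copies its DNA in S phase and separates the copies in mitosis. Replication starts where a ring of 6 Mcm proteins unwinds the DNA. Mitosis is started by the kinase Cdk1 with its A- and B-type cyclins, after which chromosomes condense, attach through kinetochores to a microtubule spindle, are held by a checkpoint until all are attached, and are pulled apart before the cell is pinched into a pair of daughters. Cardiomyocytes of adult mice rarely divide, whereas macrophages, fibroblasts and endothelial cells of the heart can enter the cycle, and the transcripts of mitosis genes accumulate mainly in cells that are cycling. Transcription of the 2 gene classes is timed by different promoter elements: E2F factors act on replication genes in late G1 and S phase, and complexes of the MuvB core bind the cell cycle genes homology region (CHR), often near CCAAT boxes bound by NF-Y, in genes of G2 and mitosis.

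The promoters of the genes were examined for these elements because promoter letters do not depend on the levels measured here. RefSeq promoters on GRCm38.p6, from 250 bases before to 30 bases after the transcription start (280 bases), were present for 30 of the 36 genes, 23 of mitosis and 7 of replication. Those of Aurkb, Ccna2, Foxm1, Kif20a, Mcm4 and Tpx2 were not analysed here. The CHR was searched as TTTGAA, the NF-Y box as CCAAT and the E2F site as any of TTTGGCGC, TTTCCCGC, TTTCGCGC and TTTGCCGC, each on both strands, and the E2F words can overlap each other. The CHR letters were found for 14 of 23 mitosis genes (60.9%) and for 1 of 7 replication genes (14.3%), against 17.2% of all 32851 promoters of the same length. The E2F letters were found for 4 of 7 replication genes (57.1%; Mcm3, Mcm5, Mcm6 and Mcm7) and for 1 of 23 mitosis genes (4.35%; Cdk1), against 2.12% of all promoters. CCAAT was present for 21 of 23 mitosis genes (91.3%) and 7 of 7 replication genes (100%), against 36.1% of all promoters. CHR and E2F letters were thus unevenly shared between the classes, and CCAAT was found in nearly all of both. A gene was counted when any of its promoters held the letters, and 3 of the 30 genes had more than 1 promoter, whereas the share of all promoters counts each singly. Of the Mcm7 promoters, only 1 held E2F letters. A match of letters is a description and not a site of binding.

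The promoters of 5 genes are shown, with the matches in capitals, to set a replication gene with E2F letters (Mcm5) and the replication gene with CHR letters (Mcm2) beside 2 typical mitosis genes (Ccnb2 and Cdc20) and the mitosis gene with the higher mean in the Ang II + Tec group (Cenpf). Coordinates are of GRCm38.p6, and starts are those of RefSeq. In 24 of the 33 promoters of these genes, the bases after the start were found in a GENCODE M21 transcript of the gene. In Mcm5 and Ccnb2 they were not, so positions there are relative to the RefSeq start only.
Mcm5, chr8:75109259-75109538 (+): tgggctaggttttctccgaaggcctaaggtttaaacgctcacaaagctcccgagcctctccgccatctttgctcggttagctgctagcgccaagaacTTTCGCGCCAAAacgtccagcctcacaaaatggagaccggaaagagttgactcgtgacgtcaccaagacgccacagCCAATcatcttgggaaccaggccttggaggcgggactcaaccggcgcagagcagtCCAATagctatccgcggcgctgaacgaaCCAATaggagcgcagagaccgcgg
Mcm2, chr6:88898751-88899030 (-): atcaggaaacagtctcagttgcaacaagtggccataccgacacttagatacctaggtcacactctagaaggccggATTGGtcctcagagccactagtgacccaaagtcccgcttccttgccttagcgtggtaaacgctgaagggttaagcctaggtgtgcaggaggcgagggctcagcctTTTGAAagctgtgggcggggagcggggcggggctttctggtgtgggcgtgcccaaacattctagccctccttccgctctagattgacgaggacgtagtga
Ccnb2, chr9:70421525-70421804 (-): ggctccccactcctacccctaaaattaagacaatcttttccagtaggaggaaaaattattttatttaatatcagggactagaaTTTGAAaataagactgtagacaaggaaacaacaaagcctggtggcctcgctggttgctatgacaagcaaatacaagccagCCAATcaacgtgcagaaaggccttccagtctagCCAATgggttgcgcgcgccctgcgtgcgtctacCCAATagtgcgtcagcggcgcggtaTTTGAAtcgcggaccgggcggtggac
Cdc20, chr4:118437314-118437593 (-): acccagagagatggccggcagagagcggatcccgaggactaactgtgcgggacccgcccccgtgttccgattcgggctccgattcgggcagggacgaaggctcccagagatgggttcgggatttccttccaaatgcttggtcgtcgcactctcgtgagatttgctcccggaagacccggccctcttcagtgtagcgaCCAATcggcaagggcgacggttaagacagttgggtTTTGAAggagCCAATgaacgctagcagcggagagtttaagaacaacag
Cenpf, chr1:189688057-189688336 (-): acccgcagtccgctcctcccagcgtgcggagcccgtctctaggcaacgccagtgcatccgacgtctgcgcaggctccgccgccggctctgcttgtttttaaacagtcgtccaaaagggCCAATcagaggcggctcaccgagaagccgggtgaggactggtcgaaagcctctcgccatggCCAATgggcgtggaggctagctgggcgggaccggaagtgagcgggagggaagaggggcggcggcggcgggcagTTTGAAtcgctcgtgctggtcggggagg
In Mcm5 the run TTTCGCGCCAAA holds 2 overlapping E2F words, 1 on each strand, which begin 153 and 149 bases before the start. In Mcm2 the CHR letters lie 70 bases before the start, with CCAAT on the opposite strand. The Cdc20 promoter has its CHR letters 18 bases before the start. The Ccnb2 promoter has them at base 5 from the RefSeq start and again 167 bases before it. Cenpf has a CHR at base 3 and 2 CCAAT boxes, so these letters do not set it apart from the other mitosis genes shown.

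**Figure D1:**
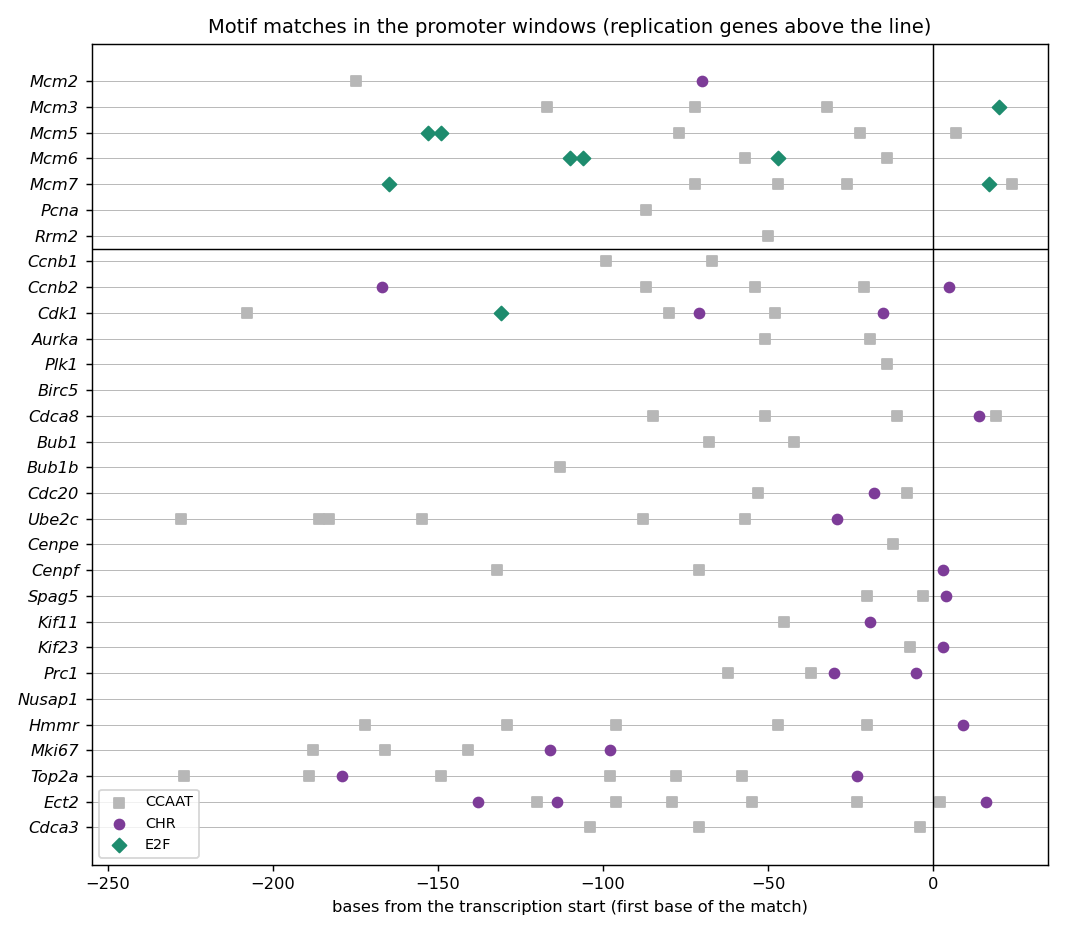
First base of each CHR (circles), CCAAT (squares) and E2F (diamonds) match, in bases from the transcription start, for the 30 genes with a promoter (1 row a gene; matches of all its promoters, 33 in all). The E2F diamonds lie on the rows of Mcm3, Mcm5, Mcm6, Mcm7 and Cdk1, and the circles on 14 mitosis rows and on Mcm2.

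The mean level of 35 of the 36 genes was lower in the Ang II + Tec group, and the exception was Cenpf. Of the 13089 tested genes, 80.0% had a lower mean. In 31 genes all 3 Ang II + Tec libraries were below all 3 Ang II libraries (25 of 28 mitosis genes and 6 of 8 replication genes), in 1 gene all 3 were above, and in 4 genes (Mcm4, Pcna, Aurka and Hmmr) the groups overlapped. Of the 14147 genes with a mean FPKM in the range of these 36 (0.117 to 11.5), the groups did not overlap in the lower direction in 15.9% and in the higher direction in 2.59% (18.9% and 2.9% of the 13089 tested genes). The ratio of the group means (Ang II + Tec over Ang II) had a median of 0.261 over the 28 mitosis genes and 0.597 over the 8 replication genes, beside 0.839 over the genes of that range and 0.850 over all 13089 genes tested. Leaving out Cenpf, the ratios of the mitosis genes ran from 0.0882 to 0.452 and those of the replication genes from 0.348 to 0.753.

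No gene of the 36 passed the test. In limma on log2(FPKM + 1), with the Benjamini-Hochberg adjustment over the 13089 genes with at least 0.5 FPKM in at least 3 of 6 libraries, the lowest adjusted p was 0.0917 (Mcm5), against 0.0764% of tested genes called lower and 0.084% called higher when an adjusted p under 0.05 is asked for together with a log2 change of 1 or more in size (0.084% and 0.0993% on the adjusted p alone). The filter kept 8 of 8 replication genes and 9 of 28 mitosis genes, and 8 of those 9 reached 0.5 FPKM in 3 libraries mainly through the Ang II group and Cenpf mainly through the Ang II + Tec group, so the tests of these 9 give no count. Of the 8 replication genes, 6 had an unadjusted p under 0.05, all lower, where 16.5% of tested genes did. Without the filter, 27 of the 36 genes had an unadjusted p under 0.05 and a lower mean, against 9.51% of 27760 genes, and 0 had an adjusted p under 0.05. In the same fit the count in either direction, 28 with all libraries, was 14 without Ang II + Tec replicate 1 or 3, 18 without Ang II + Tec replicate 2, and 18, 22 and 35 when replicates 1, 2 and 3 of the Ang II group were dropped in turn. The log2(FPKM + 1) difference understates the fold of genes under 1 FPKM, and 12 of the 36, all of mitosis, were under 1 FPKM in every library. The ratio of mean FPKM is therefore given beside it.

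**Figure D2:**
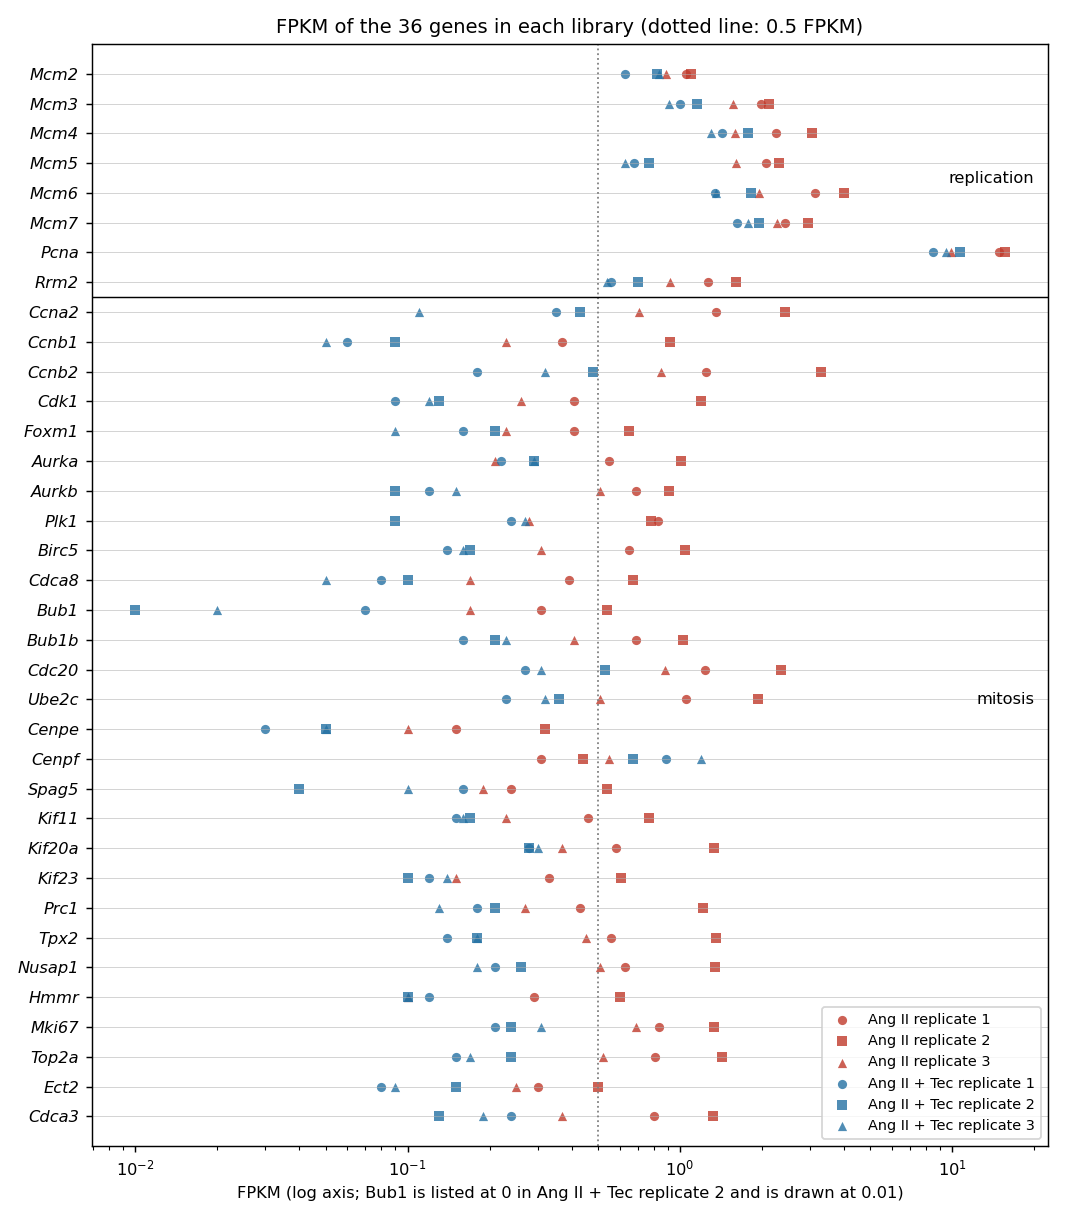
FPKM (log axis) of the 36 genes in each library, Ang II in red and Ang II + Tec in blue, with a symbol for each replicate number and a dotted line at 0.5 FPKM. In 31 rows the 3 blue symbols lie left of the 3 red ones, and Cenpf is the row in which they lie right of them.

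One library of the Ang II group stood nearer to the Ang II + Tec group. Ang II replicate 3 had the lowest Ang II value in 35 of the 36 genes, and Ang II replicate 2 had the highest value of all libraries in 34. The same order, Ang II replicate 2 above 1 above 3 above every Ang II + Tec library, was found in 30 genes (24 of mitosis and 6 of replication). The share of all genes with this order was not taken. Median-of-ratios factors, which follow the typical gene, were 1.16, 1.20 and 0.941 in Ang II replicates 1, 2 and 3. They were 0.863, 1.04 and 0.880 in Ang II + Tec replicates 1, 2 and 3. The order within the Ang II group was thus also that of the typical gene. Without Ang II replicate 3, 9 genes had an adjusted p under 0.05: Mcm3, Mcm4, Mcm5, Mcm6, Mcm7, Pcna, Rrm2 and Cdc20 were lower and Cenpf was higher. In that fit 26.1% of the tested genes were called lower and 2.62% higher, so the change in calls was not limited to these genes. Cdc20 and Cenpf passed the filter there mainly or only through the group in which they are high, and the count to set beside that share is therefore 7 of 8 replication genes. With no filter and without that library, 18 genes were called, all lower (13 of mitosis and 5 of replication), against 6.77% of 27264 genes. The 2 libraries left in the Ang II group are the highest of it for nearly all these genes.

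The Mcm2 to Mcm7 proteins form the ring of the replicative helicase, and all 6 genes had lower means in the Ang II + Tec group, 5 without overlap. Mcm5 differed by the widest margin. It was at 2.07, 2.30 and 1.6 FPKM in Ang II replicates 1, 2 and 3 and at 0.68, 0.77 and 0.63 FPKM in Ang II + Tec replicates 1, 2 and 3. The means were 1.99 ± 0.357 and 0.693 ± 0.0709 FPKM (SD, n = 3), a ratio of 0.348, and the log2(FPKM + 1) difference was -0.81 (SE 0.12, limma adjusted p = 0.0917). After the libraries were rescaled by the median of ratios, the difference of Mcm5 was -0.68 with an adjusted p of 0.0374, so Mcm5 was called under that scaling.

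Mcm3 was at 1.99, 2.12 and 1.57 FPKM with Ang II and at 1.00, 1.15 and 0.91 FPKM with Ang II + Tec. Its groups did not overlap, the ratio of means was 0.539, and the log2 difference was -0.52 (SE 0.12, limma adjusted p = 0.188). Mcm6 was the highest of the 6 in the Ang II group, at 3.12, 3.99 and 1.95 FPKM, and was at 1.34, 1.83 and 1.36 FPKM with Ang II + Tec. Its ratio of means was 0.5 and its log2 difference -0.65 (SE 0.20, limma adjusted p = 0.221), with Ang II replicate 3 only just above Ang II + Tec replicate 2. Mcm7 was at 2.43, 2.95 and 2.27 FPKM and at 1.62, 1.95 and 1.78 FPKM, a ratio of 0.699. Mcm7 holds the microRNA genes Mir25, Mir93 and Mir106b in its introns and is overlapped on the other strand by Cops6 and Ap4m1, and whether reads were counted by strand is not given in the sources used here.

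Mcm2 had the smallest difference of the 6, and Mcm4 was the subunit whose groups overlapped. Mcm2 was at 1.05, 1.10 and 0.89 FPKM with Ang II and at 0.63, 0.82 and 0.84 FPKM with Ang II + Tec. The groups of Mcm2 were separate but close, with a ratio of 0.753 and a log2 difference of -0.19 (SE 0.10, limma adjusted p = 0.333). Mcm4 was at 2.26, 3.04 and 1.59 FPKM and at 1.43, 1.78 and 1.3 FPKM. Here Ang II replicate 3 was below Ang II + Tec replicate 2, and the ratio of means was 0.655. The subunits of 1 ring thus had ratios from 0.348 to 0.753, and the differences among the subunits were not tested.

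Pcna, the sliding clamp that tethers DNA polymerase, was by far the most abundant of the 36 genes. It was at 14.86, 15.59 and 9.89 FPKM with Ang II and at 8.49, 10.63 and 9.46 FPKM with Ang II + Tec. The groups overlapped through Ang II replicate 3, and the ratio of means was 0.708 (limma adjusted p = 0.265). A processed copy, Pcna-ps2, was listed at 0.27 to 0.43 FPKM. Rrm2, the subunit of ribonucleotide reductase whose supply follows S phase, was at 1.27, 1.61 and 0.92 FPKM and at 0.56, 0.70 and 0.54 FPKM. Its groups did not overlap, and the ratio was 0.474 with a log2 difference of -0.49 (SE 0.14, limma adjusted p = 0.207).

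Among the mitosis genes, Cdk1, its cyclins and the transcription factor Foxm1 were lower without overlap in 5 of 5. Ccna2 encodes cyclin A, which acts in S phase and at mitotic entry. It was at 1.36, 2.43 and 0.71 FPKM with Ang II and at 0.35, 0.43 and 0.11 FPKM with Ang II + Tec. The ratio of means of Ccna2 was 0.198 and its log2 difference -0.90 (SE 0.25, limma adjusted p = 0.208). Ccna2 is overlapped on the other strand by Exosc9, which was at 2.34 to 3.73 FPKM. Ccnb2, a B-type cyclin, reached the highest level of the mitosis genes, 1.25, 3.28 and 0.85 FPKM, and was at 0.18, 0.48 and 0.32 FPKM with Ang II + Tec. Its ratio was 0.182 and its log2 difference -0.98 (SE 0.29, limma adjusted p = 0.221), and its spread within the Ang II group was wide (SD 1.3 FPKM). Its copy Ccnb2-ps was at 0.31 to 0.66 FPKM in the 6 libraries and overlapped between the groups.

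Ccnb1, the other B-type cyclin, was at 0.37, 0.92 and 0.23 FPKM and at 0.06, 0.09 and 0.05 FPKM, a ratio of 0.132. A processed copy, Ccnb1-ps, had the same order of the groups (0.17, 0.51 and 0.12 FPKM against 0.03, 0 and 0 FPKM), and reads of the copy and of Ccnb1 may have been shared. Cdk1, the kinase that both cyclins activate, was at 0.41, 1.19 and 0.26 FPKM and at 0.09, 0.13 and 0.12 FPKM, a ratio of 0.183. Foxm1 drives the transcription of many G2 and mitosis genes. It was at 0.41, 0.65 and 0.23 FPKM and at 0.16, 0.21 and 0.09 FPKM, and its ratio of 0.357 was the highest of the 5.

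The kinases that steer mitosis were also lower in mean. Aurkb, the kinase of the chromosomal passenger complex that corrects wrong attachments, was at 0.69, 0.91 and 0.51 FPKM with Ang II and at 0.12, 0.09 and 0.15 FPKM with Ang II + Tec. Its ratio was 0.171 and its log2 difference -0.60 (SE 0.11, limma adjusted p = 0.154), and only Ang II libraries reached 0.5 FPKM. Its partners in the complex had like values. Birc5 (survivin) was at 0.65, 1.04 and 0.31 FPKM and at 0.14, 0.17 and 0.16 FPKM, a ratio of 0.235. Cdca8 (borealin) was at 0.39, 0.67 and 0.17 FPKM and at 0.08, 0.10 and 0.05 FPKM, a ratio of 0.187. Plk1, the Polo kinase of mitotic entry and exit, was at 0.83, 0.78 and 0.28 FPKM and at 0.24, 0.09 and 0.27 FPKM, so that Ang II replicate 3 lay barely above the Ang II + Tec group. Aurka, the kinase of the spindle poles, ranged from 0.21 to 1.01 FPKM with Ang II and from 0.22 to 0.29 FPKM with Ang II + Tec. The groups of Aurka overlapped, and its ratio of 0.452 was the highest among the mitosis genes with a lower mean.

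The spindle checkpoint and the anaphase-promoting complex it restrains were represented by 4 genes, all lower without overlap. Bub1, a checkpoint kinase, had the lowest ratio of all 36 genes, 0.0882. It was at 0.31, 0.54 and 0.17 FPKM with Ang II and at 0.07, 0 and 0.02 FPKM with Ang II + Tec, where the lowest value above 0 that the table lists is 0.01. The ratio of Bub1 thus rests on values near the floor of the table. Bub1b, its relative BubR1, was at 0.69, 1.03 and 0.41 FPKM and at 0.16, 0.21 and 0.23 FPKM, a ratio of 0.282. Cdc20 activates the anaphase-promoting complex and is the target that the checkpoint holds. It was at 1.24, 2.34 and 0.88 FPKM and at 0.27, 0.53 and 0.31 FPKM, a ratio of 0.249, with a log2 difference of -0.82 (SE 0.21, limma adjusted p = 0.201). Ube2c, the ubiquitin-conjugating enzyme of the complex, was at 1.05, 1.93 and 0.51 FPKM and at 0.23, 0.36 and 0.32 FPKM. Its ratio was 0.261 and its log2 difference -0.68 (SE 0.22, limma adjusted p = 0.229). Cdc20 is overlapped on the other strand by Elovl1, at 4.8 to 9.28 FPKM with Ang II and 3.88 to 5.49 FPKM with Ang II + Tec, and Ube2c by Tnnc2, at 0 to 0.33 FPKM.

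Of the 3 genes placed with the kinetochore, 2 were lower and 1 was higher. Cenpe, the kinetochore motor, was at 0.15, 0.32 and 0.10 FPKM with Ang II and at 0.03, 0.05 and 0.05 FPKM with Ang II + Tec, the lowest mean level of the 36. Spag5 (astrin), which stabilises attachments, was at 0.24, 0.54 and 0.19 FPKM and at 0.16, 0.04 and 0.10 FPKM. Both were separate between the groups, with ratios of 0.228 and 0.309. Cenpf encodes a large protein of the nuclear matrix and the kinetochore whose transcript accumulates in G2 and mitosis. It was at 0.31, 0.44 and 0.55 FPKM with Ang II and at 0.89, 0.67 and 1.19 FPKM with Ang II + Tec. Every Ang II + Tec library was above every Ang II library, the means were 0.433 ± 0.12 and 0.917 ± 0.261 FPKM (SD, n = 3), and the ratio was 2.12. The log2 difference of Cenpf was +0.41 (SE 0.13, limma adjusted p = 0.223; higher at an unadjusted p under 0.05 were 2.09% of tested genes). Within the Ang II group its order was also reversed, with replicate 3 highest, where the other 35 genes were not highest in that library of the group. The difference of Cenpf stayed above 0 under every alternative. The only annotated gene that overlaps it, Gm37239 on the other strand, was at 0 in 4 libraries and at 0.19 and 0.12 FPKM in the others.

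The motors and bundling proteins of the spindle comprised 7 genes, of which 6 were lower without overlap. Kif11, the motor that pushes the poles apart, was at 0.46, 0.77 and 0.23 FPKM with Ang II and at 0.15, 0.17 and 0.16 FPKM with Ang II + Tec, a ratio of 0.329. Kif20a, a motor of the central spindle, was at 0.58, 1.33 and 0.37 FPKM and at 0.28, 0.28 and 0.30 FPKM, a ratio of 0.377. Kif23, a motor of the same structure that is needed for cytokinesis, was at 0.33, 0.61 and 0.15 FPKM and at 0.12, 0.10 and 0.14 FPKM. In these 3 the separation was by a small margin between Ang II replicate 3 and the Ang II + Tec libraries. Prc1 cross-links the microtubules of the central spindle. It was at 0.43, 1.21 and 0.27 FPKM and at 0.18, 0.21 and 0.13 FPKM, a ratio of 0.272. Tpx2, the activator of Aurka on the spindle, was at 0.56, 1.36 and 0.45 FPKM and at 0.14, 0.18 and 0.18 FPKM, a ratio of 0.211, and had a wider gap. Nusap1, which bundles microtubules near chromosomes, was at 0.63, 1.35 and 0.51 FPKM and at 0.21, 0.26 and 0.18 FPKM, with a ratio of 0.261 and a log2 difference of -0.56 (SE 0.17, limma adjusted p = 0.221). Hmmr, a hyaluronan receptor that also binds the spindle, ranged from 0.10 to 0.60 FPKM with Ang II and from 0.10 to 0.12 FPKM with Ang II + Tec, and its groups overlapped.

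Mki67 and Top2a are the usual markers of proliferating cells. Mki67 encodes Ki-67, which coats mitotic chromosomes, and was at 0.84, 1.33 and 0.69 FPKM with Ang II and at 0.21, 0.24 and 0.31 FPKM with Ang II + Tec. Its ratio was 0.266 and its log2 difference -0.63 (SE 0.14, limma adjusted p = 0.185). Top2a, the topoisomerase that untangles sister DNA, was at 0.81, 1.43 and 0.52 FPKM and at 0.15, 0.24 and 0.17 FPKM. Its ratio was 0.203 and its log2 difference -0.67 (SE 0.17, limma adjusted p = 0.201). Both had Ang II libraries that were at least as high as 0.52 FPKM and Ang II + Tec libraries no higher than 0.31 FPKM. Ect2, the exchange factor that triggers the cleavage furrow, was at 0.30, 0.50 and 0.25 FPKM and at 0.08, 0.15 and 0.09 FPKM. Cdca3, a trigger of mitotic entry, was at 0.80, 1.32 and 0.37 FPKM and at 0.24, 0.13 and 0.19 FPKM. Neither overlapped, with ratios of 0.305 and 0.225.

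**Figure D3:**
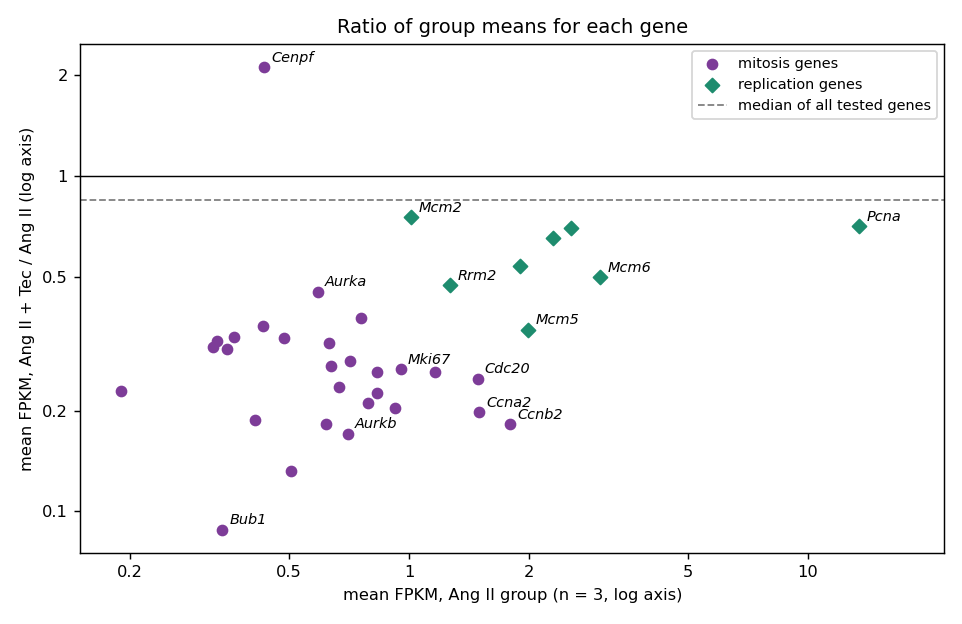
Ratio of mean FPKM (Ang II + Tec over Ang II, log axis) against mean FPKM in the Ang II group (n = 3, log axis), 1 point a gene, with the median of all tested genes as a dashed line (0.850). The mitosis genes other than Cenpf lie at 0.0882 to 0.452 and the replication genes, which are more abundant, at 0.348 to 0.753.

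Replication and mitosis genes were then set against each other within each library, where differences in scaling between libraries cancel. The summed FPKM of all 28 mitosis genes was 0.583, 0.973 and 0.507 of that of all 8 replication genes in Ang II replicates 1, 2 and 3 and 0.338, 0.306 and 0.344 of it in the Ang II + Tec libraries. Since Pcna makes up much of the replication sum and Cenpf had the opposite sign, the ratio was also taken without them, a choice made after their values were seen. It was 1.17, 1.83 and 0.920 with Ang II and 0.612, 0.592 and 0.624 with Ang II + Tec (means 1.31 ± 0.472 and 0.609 ± 0.0158, SD, n = 3). The groups did not overlap in either form, and mitosis transcripts made up a smaller part beside replication transcripts in each Ang II + Tec library. The scale decides how this appears. On log2(FPKM + 1) the median difference was -0.45 for the mitosis genes and -0.46 for the replication genes, nearly equal, and with a pseudocount of 0.1 it was -1.43 and -0.69. No test was made of the 2 lists. Over all tested genes the median was -0.17. With the libraries rescaled by the median of ratios it became 0.0087 for all tested genes, -0.39 for the mitosis genes and -0.29 for the replication genes.

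**Figure D4:**
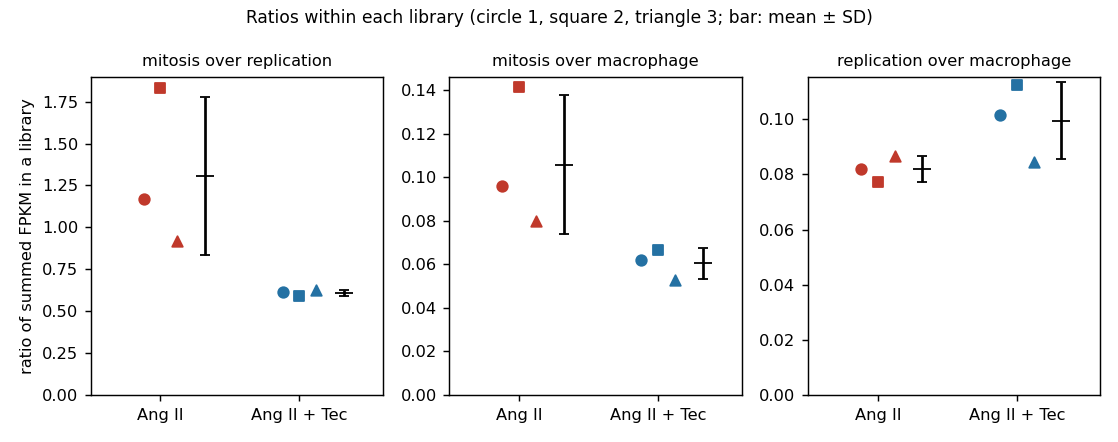
Ratios of summed FPKM within each library (mitosis without Cenpf, 27 genes; replication without Pcna, 7 genes; 7 macrophage markers), with mean ± SD (n = 3) beside the points. Mitosis over replication lies at 0.920 to 1.83 with Ang II and at 0.592 to 0.624 with Ang II + Tec, and replication over macrophage markers overlaps between the groups.

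Markers of macrophages and fibroblasts, which can divide in the heart, were lower in mean beside these genes. All 7 macrophage markers had lower means with Ang II + Tec, each at an unadjusted p under 0.05 (16.5% of tested genes were lower at that level, and 80.0% had a lower mean) and none at an adjusted p under 0.05 (limma). None was at 0. In 6 of the 7 the groups did not overlap, and in Adgre1 they did. Their summed level was 124 to 222 FPKM with Ang II and 71.5 to 87.0 FPKM with Ang II + Tec. With Ang II, C1qa and C1qb had means of 65.9 and 71.1 FPKM and the sum a mean of 173 FPKM, so the macrophage sum reads mainly these complement genes. Beside that sum the replication genes (without Pcna) were at 0.0820, 0.0771 and 0.0867 with Ang II and at 0.102, 0.112 and 0.0846 with Ang II + Tec, which overlap. The mitosis genes (without Cenpf) were at 0.0961, 0.141 and 0.0798 of it with Ang II and at 0.0621, 0.0665 and 0.0528 with Ang II + Tec, without overlap. The 7 fibroblast markers also had lower means, 4 at an unadjusted p under 0.05 (Lum, Col1a1, Col3a1 and Postn). Pdgfra, Dcn and Tcf21 did not reach that level, with ratios of 0.720, 0.645 and 0.420. The fibroblast sum reads mainly the matrix genes Dcn, Lum, Col1a1, Col3a1 and Postn, since Pdgfra and Tcf21 had means of 5.20 and 6.64 FPKM with Ang II. It overlapped between the groups: 705, 929 and 163 FPKM with Ang II against 136, 221 and 150 FPKM. Ang II replicate 3, the lowest Ang II library for the cell cycle genes, was here at the level of the Ang II + Tec group. Beside the fibroblast sum, the mitosis genes (without Cenpf) overlapped between the groups. They were at 0.0236, 0.0338 and 0.0610 of it with Ang II and at 0.0326, 0.0241 and 0.0306 with Ang II + Tec. The replication genes (without Pcna) overlapped beside it as well. Beside the summed endothelial markers, both classes were lower with Ang II + Tec without overlap. The part of macrophages, fibroblasts or other cells in the lower cell cycle transcripts was not tested.

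**Figure D5:**
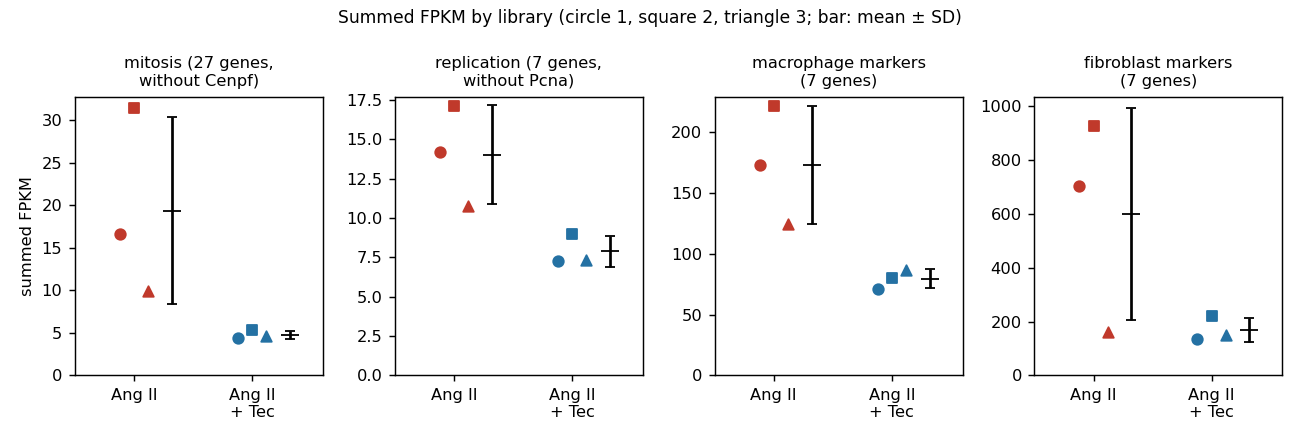
Summed FPKM by library of 27 mitosis genes (without Cenpf), 7 replication genes (without Pcna), 7 macrophage and 7 fibroblast markers, with mean ± SD (n = 3) beside the points. The Ang II libraries are in the order 2, 1, 3 in each panel, and the groups are separate in all but the fibroblast panel.

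The sums of the other marker lists overlapped between the groups, except for B cells. Cardiomyocyte markers, which were abundant in every library, summed to 4726 to 6848 FPKM with Ang II and 6297 to 6792 FPKM with Ang II + Tec. Endothelial markers summed to 71.2 to 77.9 and 64.7 to 72.8 FPKM. Atrial markers spanned a wide range within each group, from 256 to 10253 FPKM with Ang II and from 128 to 5032 FPKM with Ang II + Tec. Replicate 3 was the lowest library in both groups. The atrial marker Myl7 was at 419, 332 and 0 FPKM with Ang II and at 0, 1040 and 1.58 FPKM with Ang II + Tec. The part of atrial tissue in the differences between libraries was not tested. The sums were also mixed for T cells (0.79 to 1.32 against 0.74 to 2.68 FPKM), neutrophils (0.33 to 3.05 against 0.34 to 2.91 FPKM, with 1 of 4 markers at 0), erythroid cells (248 to 1018 against 147 to 526 FPKM), smooth muscle and pericytes (186 to 310 against 156 to 259 FPKM), adipocytes (0.86 to 33.3 against 0.23 to 77.5 FPKM) and skeletal muscle (138 to 307 against 90.5 to 628 FPKM). B-cell markers summed to 4.27 to 5.13 and 2.58 to 3.83 FPKM, without overlap. Most of that sum was Ighm, at 3.73 to 4.65 against 2.27 to 3.11 FPKM. Of the 5 B-cell markers, 3 were lower and 2 were higher in mean, so the sum reads mainly 1 gene. Transcripts of the mitochondrial genome made up 40.1% to 48.9% of all FPKM with Ang II and 49.6% to 52.5% with Ang II + Tec, and leaving them out changed no call among the 36 genes.

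Other genes of the cell cycle, in 3 lists, showed lower means in most members and 0 calls at an adjusted p under 0.05. A lower mean was also found in 80.0% of the 13089 tested genes. In the list of cycle entry and its inhibitors, 25 of 29 genes were lower in mean, near that share, with a median ratio of 0.719. Without the filter, 13 were lower and 1 was higher at an unadjusted p under 0.05. Of all 27760 genes, 9.51% were lower and 2.1% higher at that level. E2f1, which switches on replication genes, was at 0.69, 0.77 and 0.81 FPKM with Ang II and at 0.14, 0.22 and 0.21 FPKM with Ang II + Tec. Its ratio was 0.251 (limma adjusted p = 0.170 without the filter). Unlike 35 of the 36 genes above, E2f1 did not have its lowest Ang II value in replicate 3. Cdkn1c (p57), an inhibitor of cyclin-dependent kinases, was the higher one, at 6.78, 6.91 and 7.26 FPKM against 11.92, 10.99 and 12.90 FPKM (log2 difference +0.69, SE 0.11, limma adjusted p = 0.102). The inhibitor Cdkn1a (p21) overlapped between the groups, with 7.47 to 9.70 against 7.81 to 13.62 FPKM. The remaining inhibitors of the list went the other way in mean. Cdkn1b, Cdkn2b, Cdkn2c and Cdkn2d had ratios of 0.719, 0.309, 0.674 and 0.745, and the groups of Cdkn2b and Cdkn2c overlapped. Cdkn2a had a mean of 0.127 FPKM with Ang II and was at 0 with Ang II + Tec. Rbl1, Ccne2, Ccnd3 and Cdk4 had ratios of 0.461, 0.540, 0.709 and 0.687.

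In the list of the replication machinery, 46 of 47 genes were lower in mean (median ratio 0.656), and 14 were lower and 0 higher at an unadjusted p under 0.05 without the filter, beside the same 9.51% and 2.1%. Uhrf1, which keeps DNA methylation through replication, was at 0.96, 1.32 and 1.03 FPKM with Ang II and at 0.27, 0.45 and 0.32 FPKM with Ang II + Tec. Its ratio was 0.314 (limma adjusted p = 0.297 without the filter). Lig1, Rpa3, Prim1, Rfc2 and Chaf1a, which act in ligation, strand protection, priming, clamp loading and chromatin assembly, had ratios of 0.505, 0.688, 0.444, 0.648 and 0.556. In the list of spindle, kinetochore and cytokinesis, 43 of 45 genes were lower in mean (median ratio 0.333). In 26 of them the groups did not overlap, against 11.6% of 27760 genes. At an unadjusted p under 0.05 without the filter, 22 were lower and 1 was higher, again beside 9.51% and 2.1%. Counts without the filter are given for these lists because many of their genes reach 0.5 FPKM only in Ang II libraries. Among them are E2f1, Uhrf1, Tacc3, Incenp, Ncaph and Mad2l1. Tacc3, Incenp, Ncaph, Smc2 and Mad2l1 had ratios of 0.318, 0.394, 0.451, 0.461 and 0.440. The median ratios of these lists were in the same order as in the genes above, lower for mitosis than for replication.

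Pttg1 (securin, which holds separase until anaphase) stood out in the spindle list as Cenpf did among the 28. It was at 2.45, 2.76 and 10.77 FPKM with Ang II and at 25.21, 26.10 and 25.81 FPKM with Ang II + Tec. The Ang II + Tec libraries were nearly equal and all higher, and Ang II replicate 3 lay between the groups. Its ratio was 4.83 and its log2 difference +2.32 (SE 0.43, limma adjusted p = 0.154). For both Cenpf and Pttg1 the highest Ang II library was replicate 3, the lowest one for the remaining 35 genes of mitosis and replication.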

How the data were processed

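Poly(A) RNA from 6 hearts was sequenced as paired ends. The authors trimmed reads with Cutadapt, inspected their quality in FastQC, and deposited 1 FPKM value a gene and library. The submitters' processing notes name HISAT2 2.0, StringTie 1.3.0, Bowtie 0.12.2 and the build mm8, but the coordinates in the table equal GENCODE M21 (GRCm38) for 26777 of 30832 shared genes. The strand setting of the counting is not given in the sources used here. FPKM keep no read totals and no read step was found in low values, so depth is unknown and the error is the spread between mice. Summed FPKM were 516699 to 629989. The labels give each library a heart of its own.

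Ang II + Tec was compared with Ang II in limma 3.58.1 (R 4.3.3; eBayes with a variance trend) on log2(FPKM + 1), over 13089 genes with at least 0.5 FPKM in at least 3 of 6 libraries, with Benjamini-Hochberg adjustment. A gene was called at an adjusted p under 0.05, with and without a limit of 1 on the size of the log2 change. All 36 genes are named. Of the other cell cycle genes, at most 6 a list are named, by lowest unadjusted p in the fit with the filter. Pttg1, Cdkn1a and the remaining Cdkn inhibitors were added. Genes that did not pass the filter were thus not ranked. Among them, Clspn of the replication list had a ratio of 0.173 (limma unadjusted p = 0.000137 without the filter). The members and lists were chosen with earlier results of these data known. Promoters are from RefSeq. Alternatives changed pseudocount, filter, scaling, block, variance trend, weights and libraries.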

Additional observations from a re-analysis of the deposited data

How the results depend on the processing

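No gene of the 36 changed the sign of its difference under any of 24 alternatives. Of 864 values (36 genes in 24 settings), 0 reversed and 46 newly reached an adjusted p under 0.05 (7 of them for genes not tested in the reported fit). Another 38, all of untested genes and with a pseudocount of 0.1, moved by more than the spread, and 780 had none of these changes. Genes with a p in both fits were judged only by sign and by an adjusted p under 0.05. Their changes of size are therefore not in these counts: with a pseudocount of 0.1 the difference of Ccna2 went from -0.90 to -1.97. The count of the 36 genes called at an adjusted p under 0.05 was 0 in the reported fit, 1 with median-of-ratios or quantile scaling (Mcm5), 17 with array weights (which gave Ang II replicate 3 a weight of 0.191, and called 54.6% of tested genes lower), 0 to 9 when 1 library was left out, and 0 to 18 when 1 library was left out with no filter. Ang II replicate 3 is the library behind the 9 and the 18. With the fold limit as well, the count was 0 in the reported fit, 1 with array weights, and 0 to 1, or 0 to 2 with no filter, when 1 library was left out. The count at an unadjusted p under 0.05 was 15, of which 9 are mitosis genes that passed the filter mainly through the group in which they are high, so it supports nothing by itself. It was 5 with a filter of 1 FPKM, 28 with no filter, 30 with no filter and a pseudocount of 0.1, 26 with no filter and median-of-ratios scaling, 5 to 14 when 1 library was left out (5, 6 and 9 without Ang II replicates 1, 2 and 3, where dropping an Ang II library removes mitosis genes from the test and, for replicates 1 and 2, Mcm7 and Pcna were tested but no longer under 0.05), and 14 to 35 when 1 was left out with no filter. Over all genes 21 were called with the fold limit, 11 with a filter on the mean, 3 with no filter, 13 with no filter and a pseudocount of 0.1, 10 with no filter and median-of-ratios scaling, 505 with array weights, 0 to 544 when 1 library was left out (3, 6 and 544 without Ang II replicates 1, 2 and 3, and 0 without any 1 of the Ang II + Tec libraries) and 0 to 452 when 1 was left out with no filter. The median log2 difference of the mitosis genes moved from -0.45 to -1.43 and that of the replication genes from -0.46 to -0.69 with a pseudocount of 0.1, with or without the filter, which puts replication minus mitosis at +0.75 in place of -0.0099; with array weights it was -0.15. The cause of the remaining moves was not tested. The fits with no filter combined with another choice were chosen after seeing the data.

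Deviations of libraries with the same replicate number correlated at -0.0394, 0.429 and 0.379, and those with different numbers at -0.435 to 0.226. The values 0.429 and 0.379 were thus the highest of all pairs. These values do not settle whether the numbers pair the mice. The reported fit was unpaired, and the number was used as a block in an alternative. With the replicate number as a block, 16 of the 36 genes had an unadjusted p under 0.05, 0 an adjusted p under 0.05, and 22 of all genes were called. Depth is unknown in FPKM, and for mitosis genes under 0.5 FPKM the counting error behind each value cannot be given.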
